A study of Mus musculus with 26 samples.

Results

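Open chromatin around the 4 Id genes and 3 genes of bone morphogenetic protein (BMP) signalling was examined in mouse pluripotent cells by ATAC-seq, an assay that marks accessible DNA by where the transposase Tn5 cuts. The 7 genes, out of 21883 protein-coding genes, were Id1, Id2, Id3, Id4, Bmp4, Bmpr1a and Smad6. They were chosen by name and not ranked by their values, but earlier results of these data were known. Every peak of the 26 deposited lists that overlapped the GRCm38 span of one of these genes, or the 50 kb on either side of it, was taken, which gave 543 peaks. Merged across lists, these peaks formed 73 regions of the 75600 in the series. Regions were classed as at a gene end (within 1 kb of either end of the member), at the end of another gene, in the body of the member, or distal.

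The first set held 6 groups of 3 libraries each. ES cells were kept in 2iL (passage 16). Formative stem (FS) cells were kept in A3XR, as lines FS1 (passage 21) and FS2 (passage 29). Epiblast stem cells (EpiSC) were kept in AF (EpiSC_AF, passage 22) or in AFX, as lines EpiSC_AFX1 (passage 14) and EpiSC_AFX2 (passage 16). A second set, Rd2, held 2 libraries of Rd2_ES in 2iL (passage 33), 4 of Rd2_EpiLC and 2 of Rd2_AFX (passage 16). The EpiLC libraries came from ES cells induced for 2 days in AF with KSR and sorted for low GFP. The titles of all Rd2 libraries carry the tag WT. No genotype, strain or agent is given for the first set. Each library used 50000 cells, and each numbered FS or AFX group was taken as 1 line. The labels do not say whether libraries of a group came from separate cultures, so every p below measures only the spread between these libraries.

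BMP ligands bind paired type I and type II receptors, which phosphorylate SMAD proteins of the BMP branch. These enter the nucleus with SMAD4 and switch on target genes, among which the Id genes are classic direct targets. Id proteins are helix-loop-helix proteins without a DNA-binding basic region, and they hold E proteins and their partners away from DNA. In mouse ES cells, BMP signalling and Id proteins are known for restraining differentiation when combined with LIF.

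The promoters of 5 members are shown because the text below gives whether a peak lay over them. Each runs 5′ to 3′ on the gene's own strand, from 250 bases before the annotated start to 50 after it, and is taken from RefSeq (GRCm38.p6). Promoter entries matched 6 of the 7 members; Id1 was not matched. Capitals mark matches on either strand to 4 strings chosen with the results known: GGCGCC (part of the GC-rich element bound by SMAD1 and SMAD5), GTCTAGAC (the SMAD palindrome), CCAAT and the E-box CACGTG. None of these strings overlapped another in the promoters shown.
Id2 (chr12:25096043-25096342, minus strand): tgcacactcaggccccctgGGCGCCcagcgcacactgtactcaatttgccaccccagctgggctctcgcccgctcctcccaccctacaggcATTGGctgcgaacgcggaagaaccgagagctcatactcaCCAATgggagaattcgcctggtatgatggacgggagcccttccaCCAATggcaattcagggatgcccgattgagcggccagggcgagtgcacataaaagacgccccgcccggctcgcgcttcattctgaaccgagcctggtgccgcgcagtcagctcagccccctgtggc
Id3 (chr4:136143572-136143871, plus strand): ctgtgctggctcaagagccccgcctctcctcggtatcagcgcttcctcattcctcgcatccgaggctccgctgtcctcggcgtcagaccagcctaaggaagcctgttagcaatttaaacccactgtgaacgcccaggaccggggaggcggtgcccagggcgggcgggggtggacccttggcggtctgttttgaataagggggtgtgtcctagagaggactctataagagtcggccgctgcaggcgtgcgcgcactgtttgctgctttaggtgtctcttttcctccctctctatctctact
Id4 (chr13:48260866-48261165, plus strand): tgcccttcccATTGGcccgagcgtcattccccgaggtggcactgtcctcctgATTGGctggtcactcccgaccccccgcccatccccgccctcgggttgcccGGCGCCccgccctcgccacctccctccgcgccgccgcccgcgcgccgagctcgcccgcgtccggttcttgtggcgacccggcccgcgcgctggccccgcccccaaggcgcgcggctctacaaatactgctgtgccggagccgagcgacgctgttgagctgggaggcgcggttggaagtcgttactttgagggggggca
Bmp4 (chr14:46390620-46390919, minus strand): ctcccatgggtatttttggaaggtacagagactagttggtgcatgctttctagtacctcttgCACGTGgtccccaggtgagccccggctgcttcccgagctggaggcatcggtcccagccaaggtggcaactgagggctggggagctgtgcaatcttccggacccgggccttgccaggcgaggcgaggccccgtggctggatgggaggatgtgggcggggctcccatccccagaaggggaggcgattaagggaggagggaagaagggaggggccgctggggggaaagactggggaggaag
Smad6 (chr9:64022010-64022309, minus strand): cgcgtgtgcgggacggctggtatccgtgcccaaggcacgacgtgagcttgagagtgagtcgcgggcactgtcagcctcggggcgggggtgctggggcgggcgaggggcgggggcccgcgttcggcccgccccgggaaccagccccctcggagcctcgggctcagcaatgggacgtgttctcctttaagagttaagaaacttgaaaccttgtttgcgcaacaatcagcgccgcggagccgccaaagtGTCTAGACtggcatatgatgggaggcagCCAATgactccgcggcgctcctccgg

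GGCGCC was found in the promoters of Id2, Id4 and Bmpr1a, against 11.9% of all 32851 promoter entries. GTCTAGAC was found in that of Smad6, 4 bases before the annotated start, against 0.213% of all entries (70). CCAAT stood 3 times in the Id2 promoter, 2 times in that of Id4 and 1 time each in those of Bmpr1a and Smad6, against 37.4% of entries with any. CACGTG was found in the Bmp4 promoter (7.15% of entries). The Id3 promoter held none of the 4 strings. These promoters were GC-rich: 60.0% for Id3, 63.3% for Id2, 64.0% for Bmp4, 66.3% for Smad6, 73.3% for Id4 and 79.3% for Bmpr1a, against a median of 52.7%. A match describes letters in this window and shows no binding.

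The lists differed in length, from 471 peaks in Rd2_ES replicate 1 to 31263 in FS1 replicate 3. Read depth is unknown, because the lists carry no read counts. Within the first set the ES lists were the shortest (8044 to 10961), FS2 lists held 11796 to 14147 and the FS1 lists 23883 to 31263. Counts below are therefore given at equal list length, meaning the 8044 peaks with the highest −log10 p of each list, and separately for the lists as deposited. ES replicate 2 stood apart: it held 2 peaks in the 7 windows, against 9 in each of the other ES libraries at equal length. Labels were checked by peaks at marker gene ends at equal length. Peaks at Zfp42 and Tbx3, genes of naive cells, were present in 3 of 3 ES libraries and in 0 of 15 others. Peaks at Tcf15 and Dnmt3b, genes of the formative and primed states, were present in every FS1, EpiSC_AF and AFX library. They were in 0 of 3 ES and 0 of 3 FS2 libraries. As deposited, Tbx3 was also in 4 of 6 FS, 3 of 3 EpiSC_AF and 6 of 6 AFX libraries, and Zfp42 in 1 of 3 EpiSC_AF libraries. In those lists FS2 held Tcf15 in 3 of 3 and Dnmt3b in 2 of 3 libraries, and ES held neither. At equal length Pou3f1, of the same states, was in 1 of 3 ES, 5 of 6 FS, 3 of 3 EpiSC_AF and 6 of 6 AFX libraries. Fgf5 was in 0 of 3, 1 of 6, 2 of 3 and 1 of 6 in that order. Of 4 primed markers, Eomes was in 1 of 3, 2 of 6, 2 of 3 and 4 of 6 in that order. T was in 1 of 3 EpiSC_AF libraries alone, Foxa2 in 1 of 6 FS libraries alone and Sox17 in none. Pou5f1, used in all of these states, had a gene-end peak in 0 of 3 ES, 4 of 6 FS and 7 of 9 EpiSC libraries. Sox2, also shared, was in 2 of 3 ES, 1 of 6 FS, 3 of 3 EpiSC_AF and 5 of 6 AFX libraries. Nanog was in 2 of 3, 1 of 6, 1 of 3 and 6 of 6 in that order. The other naive markers did not follow the labels. Tfcp2l1 had a gene-end peak in 0 of 3 ES, 4 of 6 FS, 1 of 3 EpiSC_AF and 6 of 6 AFX libraries, and Klf4 in 2 of 3, 2 of 6, 2 of 3 and 4 of 6 in the same order. Esrrb, Nr5a2 and Otx2, also markers of these states, were at 0 in all 18 libraries. The 3 trophoblast and 3 primitive endoderm markers were at 0 in all 18, and of 4 fibroblast markers only Thy1 had peaks (3 of 6 FS and 5 of 6 AFX libraries). As deposited, the trophoblast marker Cdx2 was in 3 of 6 FS, 3 of 3 EpiSC_AF and 3 of 6 AFX libraries, and Elf5 in 1 of 6 FS libraries. The primitive endoderm marker Gata6 was in 2 of 6 FS, 3 of 3 EpiSC_AF and 5 of 6 AFX libraries there. Sox7 was in 3 of 6, 2 of 3 and 3 of 6 in that order, and ES held none of these. In bulk lists, fewer cells with an open region and weaker opening in each cell cannot be told apart.

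The clearest difference was at Id3. At equal list length the Id3 window held fewer peaks in every ES library than in any FS or AFX library, and it was the only member for which this was so. Over all genes tested, 5.21% lay wholly below in ES against FS and 7.06% in ES against AFX. The region 3.35 kb upstream of the Id3 start had a peak in 0 of 3 ES libraries and in 14 of the 15 others. At Smad6 the mean was also lower in ES cells, with overlapping groups. The promoter of Id2 was covered in 17 of 18 libraries, and the Bmp4 window held no peak among the 8044 strongest in 15 of 18 libraries. No member passed the adjusted threshold of 0.05 at equal list length in any of the 3 comparisons (ES against FS, ES against AFX, FS against AFX), and 0.0% of all tested genes did in each. An unadjusted exact permutation p under 0.05 was found for 2 of 6 members tested in ES against FS, 1 of 7 in ES against AFX and 0 of 7 in FS against AFX. Over all genes tested that share was 11.7% of 17765, 14.5% of 17501 and 2.78% of 16989.

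**Figure D1:**
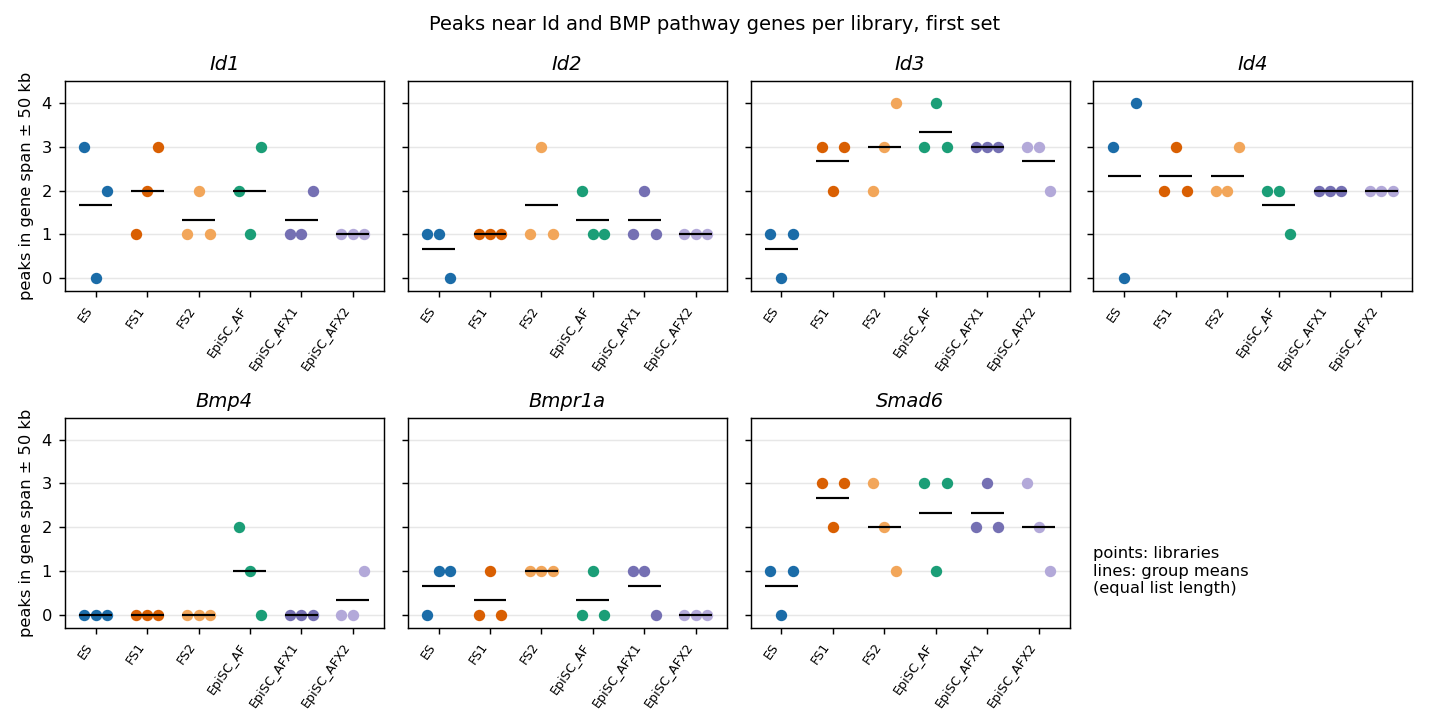
Peaks in the span of each member plus 50 kb on each side (vertical axis, number of peaks) for the 3 libraries of each first-set group (horizontal axis) at equal list length, with lines at the group means. All ES libraries lie at 0 or 1 in the Id3 panel and every other library lies at 2 or more; Bmp4 points are mostly at 0.

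Bmp4 encodes a secreted ligand of the pathway (chr14:46383525-46390669). At equal list length its window held 0 peaks in all 3 ES, all 6 FS and all 3 EpiSC_AFX1 libraries. EpiSC_AF libraries held 2, 1 and 0 peaks, and EpiSC_AFX2 libraries 0, 0 and 1. Peaks were therefore seen in EpiSC libraries alone at this length, and in 3 of 9 of them; no test was made of that count. The difference ES minus AFX was −0.167 peaks (0.0 ± 0.0 SD, n = 3, against 0.167 ± 0.408, n = 6; exact permutation test, adjusted p = 1.0). As deposited, FS1 held 2, 2 and 3 peaks, FS2 0 in each, EpiSC_AF 3, 2 and 2, EpiSC_AFX1 0, 1 and 1, and EpiSC_AFX2 2 in each, while ES stayed at 0. In these lists FS1 lay wholly above FS2 at Bmp4, as it did at Id1, Id3, Bmpr1a and Smad6. The FS1 lists were the longer ones, and the share over all genes was not counted for this pair of lines. The promoter printed above was covered in no library at equal length. In the deposited lists a promoter region (chr14:46390468-46390814) had a peak in 3 of 3 FS1, EpiSC_AF and EpiSC_AFX2 libraries, and in 0 of 3 ES, FS2 and EpiSC_AFX1 libraries. A region in the gene body 3.01 kb downstream of the start (chr14:46387319-46387990) was held by 2 of 3 EpiSC_AF and 1 of 3 EpiSC_AFX2 libraries at equal length.

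Bmpr1a encodes a type I BMP receptor (chr14:34411061-34503336). Its window held 0, 1 and 1 peaks in ES libraries, 0, 1 and 0 in FS1, 1 in each FS2 library, 0, 1 and 0 in EpiSC_AF, 1, 1 and 0 in EpiSC_AFX1, and 0 in each EpiSC_AFX2 library. All groups overlapped ES. The difference ES minus FS was 0.0 peaks (0.667 ± 0.577 SD, n = 3, against 0.667 ± 0.516, n = 6; exact permutation test, adjusted p = 1.0). ES minus AFX was 0.333 peaks (adjusted p = 0.812, exact permutation test). The merged region across its start (chr14:34502089-34503498) was held by 1 of 3 ES, 1 of 3 FS1, 2 of 3 FS2, 1 of 3 EpiSC_AF, 1 of 3 EpiSC_AFX1 and 0 of 3 EpiSC_AFX2 libraries. In the deposited lists it was held by 2 of 3 ES and 14 of the other 15 libraries. A distal region 46.6 kb upstream, within Ldb3 (chr14:34548507-34549739), had a peak in 1 of 3 ES libraries and 15 of the other 15 in those lists. So most receptor peaks ranked below the strongest 8044 outside ES cells, and the deposited counts were 1 in each ES library against 2 to 4 in FS and 3 to 5 in AFX libraries.

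Smad6 encodes an inhibitory SMAD that is itself induced by BMP signalling (chr9:63953076-64022085). At equal length its window held 1, 0 and 1 peaks in ES, 3, 2 and 3 in FS1, 3, 2 and 1 in FS2, 3, 1 and 3 in EpiSC_AF, 2, 3 and 2 in EpiSC_AFX1, and 3, 2 and 1 in EpiSC_AFX2. The ES values lay at the low end but touched the lowest FS and AFX libraries. ES minus FS was −1.67 peaks (0.667 ± 0.577 SD, n = 3, against 2.33 ± 0.816, n = 6; exact two-sided permutation test p = 0.0476, adjusted p = 0.406). ES minus AFX was −1.5 peaks (2.17 ± 0.753 in AFX, n = 6; exact permutation p = 0.0714, adjusted p = 0.343). Without ES replicate 2 these differences were −1.33 and −1.17 peaks.

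The Smad6 peaks lay in 3 main places. A region 3.48 kb inside the gene from its start (chr9:64018071-64019088) was held by 0 of 3 ES, 2 of 3 FS1, 1 of 3 FS2, 2 of 3 EpiSC_AF, 3 of 3 EpiSC_AFX1 and 2 of 3 EpiSC_AFX2 libraries. A region 1.01 kb upstream of the start (chr9:64022836-64023295) was held by 1 of 3 ES, 3 of 3 FS1, 0 of 3 FS2, 3 of 3 EpiSC_AF, 1 of 3 EpiSC_AFX1 and 3 of 3 EpiSC_AFX2 libraries. FS1 and FS2 did not share it at this length. A region 27.8 kb upstream of the gene span (chr9:64049850-64050363), which also overlaps the promoter entry of 1110036E04Rik, was held by 0 of 3 ES, 4 of 6 FS, 2 of 3 EpiSC_AF and 3 of 6 AFX libraries. The promoter window with the SMAD palindrome lay under another region (chr9:64021876-64022420) that no library held at equal length; as deposited it was held by 1 of 3 FS1, 2 of 3 FS2, 2 of 3 EpiSC_AF and 3 of 3 EpiSC_AFX1 libraries, and by 0 of 3 EpiSC_AFX2.

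Id1 (chr2:152736251-152737410) is the member most often used as a readout of BMP signalling. Its window held 3, 0 and 2 peaks in ES, 1, 2 and 3 in FS1, 1, 2 and 1 in FS2, 2, 1 and 3 in EpiSC_AF, 1, 1 and 2 in EpiSC_AFX1 and 1 in each EpiSC_AFX2 library. ES libraries spanned the whole range of the others. ES minus FS was 0.0 peaks (1.67 ± 1.53 SD, n = 3, against 1.67 ± 0.816, n = 6; exact permutation test, adjusted p = 1.0), and ES minus AFX was 0.5 peaks (1.17 ± 0.408 in AFX, n = 6; adjusted p = 0.98, exact permutation test). The region most often held, in 2 of 3 ES and 15 of 15 other libraries, was not at Id1 but 28.1 kb below it at an end of H13 (chr2:152707547-152708157), a gene for an intramembrane protease. Within 1 kb of Id1 itself no ES library had a peak. A region just below the lower-coordinate end of Id1 (chr2:152735007-152735325) was held at equal length by 1 of 3 FS1, 1 of 3 FS2, 2 of 3 EpiSC_AF, 1 of 3 EpiSC_AFX1 and 0 of 3 EpiSC_AFX2 libraries. As deposited, it was held by all FS1, EpiSC_AF and AFX libraries and 1 of 3 FS2 libraries. A second region, across the lower-coordinate end of Id1 (chr2:152736062-152736507), was held by 1 of 3 FS1 and 1 of 3 EpiSC_AF libraries.

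Id1 also had the only region that was seen in more than 1 ES library and in no other cell type. It lay 9.05 kb below the gene (chr2:152726873-152727202) and had a peak in ES replicates 1 and 3 and in Rd2_ES replicate 2, and in none of the 21 lists from other cells. Of the 73 regions, 3 were held by ES or Rd2_ES lists alone; the other two, near Id4 and Smad6, were each held by 1 library. These are 4.11% of the 73, beside 4.36% of all 75600 regions. A further 58 (79.5%) were in no ES or Rd2_ES list, beside 77.8% of all regions, and 25 (34.2%) were in 1 list only, beside 41.7%. The ES and Rd2_ES lists are the short ones, with 471 to 10961 peaks.

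Id2 (chr12:25093799-25096092), which encodes a further inhibitor of E proteins, had the steadiest promoter. Its window held 1, 1 and 0 peaks in ES, 1 in each FS1 library, 1, 3 and 1 in FS2, 2, 1 and 1 in EpiSC_AF, 1, 2 and 1 in EpiSC_AFX1 and 1 in each EpiSC_AFX2 library. ES minus FS was −0.667 peaks (0.667 ± 0.577 SD, n = 3, against 1.33 ± 0.816, n = 6; exact permutation test, adjusted p = 0.865). The promoter region (chr12:25095969-25096381), over the sequence with GGCGCC and 3 CCAAT strings above, had a peak in 2 of 3 ES libraries and in 15 of 15 others, and in 4 of 4 Rd2_EpiLC and 2 of 2 Rd2_AFX libraries. Rd2_ES had none there. Within 1 library at equal length, the promoters covered made up at least 13.6% of all entries in each ES library. In each AFX library they made up at least 17.2%. Across libraries, 10.4% of all genes had a gene-end peak in every FS library and 15.1% in every AFX library, and Id2 was among both. A region 2.99 kb upstream (chr12:25098644-25099528) had 1 of 3 libraries each in FS2, EpiSC_AF and EpiSC_AFX1 at equal length, and 12 of 15 libraries outside ES in the deposited lists, with 0 of 3 in ES.

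Id3 (chr4:136143822-136145392) encodes another E-protein antagonist that responds to BMP. Its window held 1, 0 and 1 peaks in ES libraries, 3, 2 and 3 in FS1, 2, 3 and 4 in FS2, 3, 4 and 3 in EpiSC_AF, 3 in each EpiSC_AFX1 library, and 3, 3 and 2 in EpiSC_AFX2. By group mean the order was ES (0.667), FS1 and EpiSC_AFX2 (2.67 each), FS2 and EpiSC_AFX1 (3.0 each) and EpiSC_AF (3.33); the groups above ES all overlapped each other. ES minus FS was −2.17 peaks (0.667 ± 0.577 SD, n = 3, against 2.83 ± 0.753, n = 6; exact two-sided permutation test p = 0.0119, adjusted p = 0.19). ES minus AFX was also −2.17 peaks (2.83 ± 0.408 in AFX, n = 6; exact permutation p = 0.0119, adjusted p = 0.138). With 3 libraries against 6, 0.0119 is the smallest p that the 84 assignments can give, and neither difference passed the adjustment over all genes. Both comparisons use the same ES libraries. Without ES replicate 2 the differences were −1.83 peaks in both. FS minus AFX was 0.0 peaks (adjusted p = 1.0, exact permutation test).

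Id3 was 1 of the 5.21% of genes whose ES libraries all lay below all FS libraries at equal length, while 2.12% lay wholly above. Against AFX the shares were 7.06% below and 2.75% above. No member lay wholly above in either, and no member separated FS from AFX, where 0.129% of genes lay wholly above and 0.106% wholly below.

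A small number of places made up most of the Id3 peaks. The region 3.35 kb upstream of the start (chr4:136140310-136140634) lies in no other protein-coding gene and had a peak in 0 of 3 ES libraries, 6 of 6 FS, 3 of 3 EpiSC_AF, 3 of 3 EpiSC_AFX1 and 2 of 3 EpiSC_AFX2 libraries at equal length. The library without it, EpiSC_AFX2 replicate 3, had it in the deposited list. Its −log10 p lay between the 29.7th and the 94.7th percentile of the 8044 peaks of the FS libraries, and the authors' fold enrichment there was 3.88 to 6.57. A region 4.37 kb downstream of the start, past the far end of the gene (chr4:136147755-136148632), had a peak in 0 of 3 ES, 2 of 3 FS1, 0 of 3 FS2, 3 of 3 EpiSC_AF and 6 of 6 AFX libraries. As deposited, FS1 held it in 3 of 3 and FS2 in 2 of 3 libraries, and ES in none. A region 36.8 kb downstream, within E2f2 and over an E2f2 promoter entry (chr4:136180060-136181269), was held by 2 of 3 ES and all 15 other libraries. It was the only Id3-window peak that ES libraries had. E2f2 encodes a cell-cycle transcription factor.

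The Id3 promoter itself was rarely among the strongest peaks. The region over it (chr4:136143600-136143942) was held by 0 of 3 ES, 0 of 3 FS1, 1 of 3 FS2, 1 of 3 EpiSC_AF and 0 of 6 AFX libraries at equal length. In the deposited lists it was held by 2 of 3 FS1, 2 of 3 FS2, 3 of 3 EpiSC_AF, 2 of 3 EpiSC_AFX1 and 3 of 3 EpiSC_AFX2 libraries, and still by no ES library. The ES lists covered 13.8 to 16.9% of all promoter entries as deposited, and the FS1 lists 34.2 to 36.9%.

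**Figure D2:**
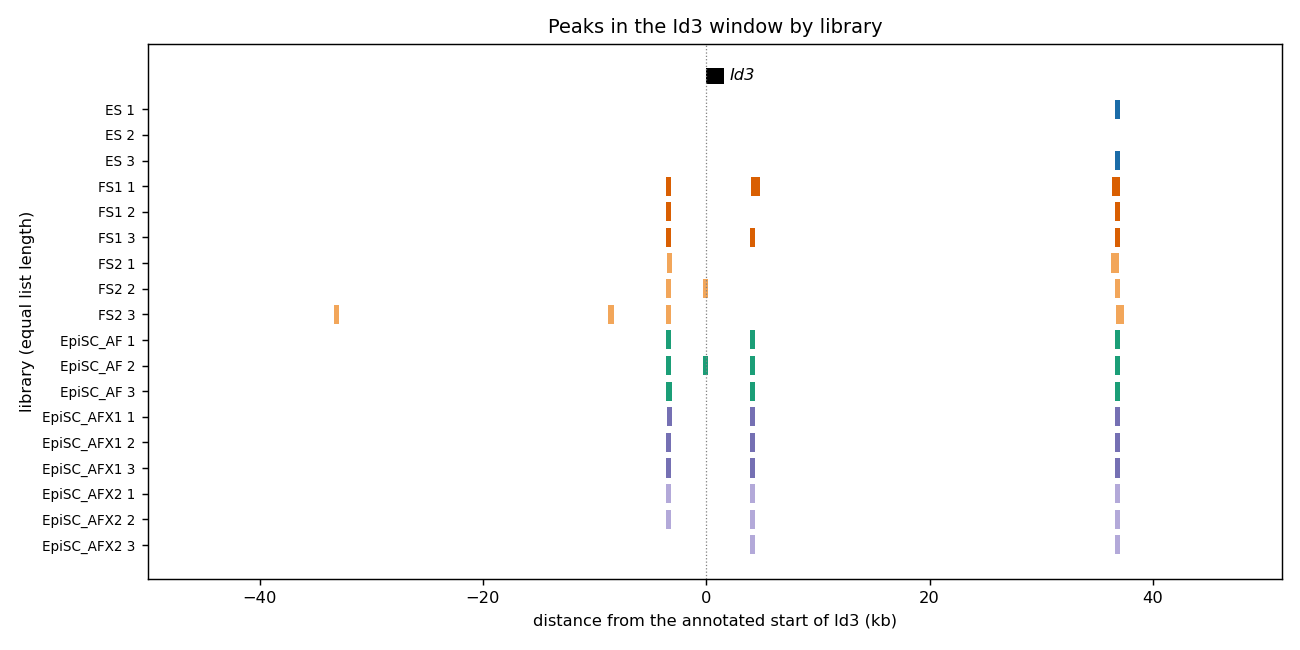
Peaks in the Id3 window in each first-set library (rows, coloured by group) by distance in kb from the annotated Id3 start (horizontal axis) at equal list length; the black bar is the gene, and peaks narrower than 0.45 kb are drawn 0.45 kb wide. No ES row has a mark at −3.35 kb or at 4.37 kb, and ES replicates 1 and 3 have the mark at 36.8 kb.

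Id4 (chr13:48261116-48266028), which encodes the fourth Id protein, held 3, 0 and 4 peaks in ES, 2, 3 and 2 in FS1, 2, 2 and 3 in FS2, 2, 2 and 1 in EpiSC_AF and 2 in each AFX library. The ES libraries included both the lowest and the highest value. ES minus FS was 0.0 peaks (2.33 ± 2.08 SD, n = 3, against 2.33 ± 0.516, n = 6; exact permutation test, adjusted p = 1.0). The promoter region (chr13:48260658-48262032) was held by 2 of 3 ES, 3 of 3 FS1, 2 of 3 FS2 and 9 of 9 EpiSC libraries. A region 32.6 kb upstream of the gene span (chr13:48227607-48228466) was held by 1 of 3 ES, 6 of 6 FS, 2 of 3 EpiSC_AF and 6 of 6 AFX libraries. Another region, 26.8 kb upstream of the gene span (chr13:48233843-48234288) ran the other way at equal length, with 2 of 3 ES, 1 of 3 FS1 and 2 of 3 FS2 libraries against 0 of 9 EpiSC libraries. In the deposited lists, however, 8 of 9 EpiSC libraries held it, so its peaks there ranked below the strongest 8044. No test of this region passed the adjustment.

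Over single regions, 29 of the 22046 merged regions in the ES and FS libraries lay in the 7 windows at equal length. Only the upstream Id3 region (chr4:136140310-136140624 when merged over these libraries) was held by every FS library and no ES library (Fisher's exact test p = 0.0119, adjusted p = 0.312); the background was 1.69% of all regions for FS only and 2.12% for ES only. Of 22 regions in the ES and AFX windows, 1 was held by AFX only, the downstream Id3 region (chr4:136147755-136148163; Fisher's exact test p = 0.0119, adjusted p = 0.224). The share over all 20630 regions was 2.59% for AFX only and 2.72% for ES only. FS and AFX were separated at 0 of 25 regions, against 0.128% held by FS only and 0.0533% by AFX only among 18774. These counts were 2 without ES replicate 2 for ES against FS, and 3 for ES against AFX. No share over all regions was counted without that library, and fewer libraries make such separation easier for every region.

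**Figure D3:**
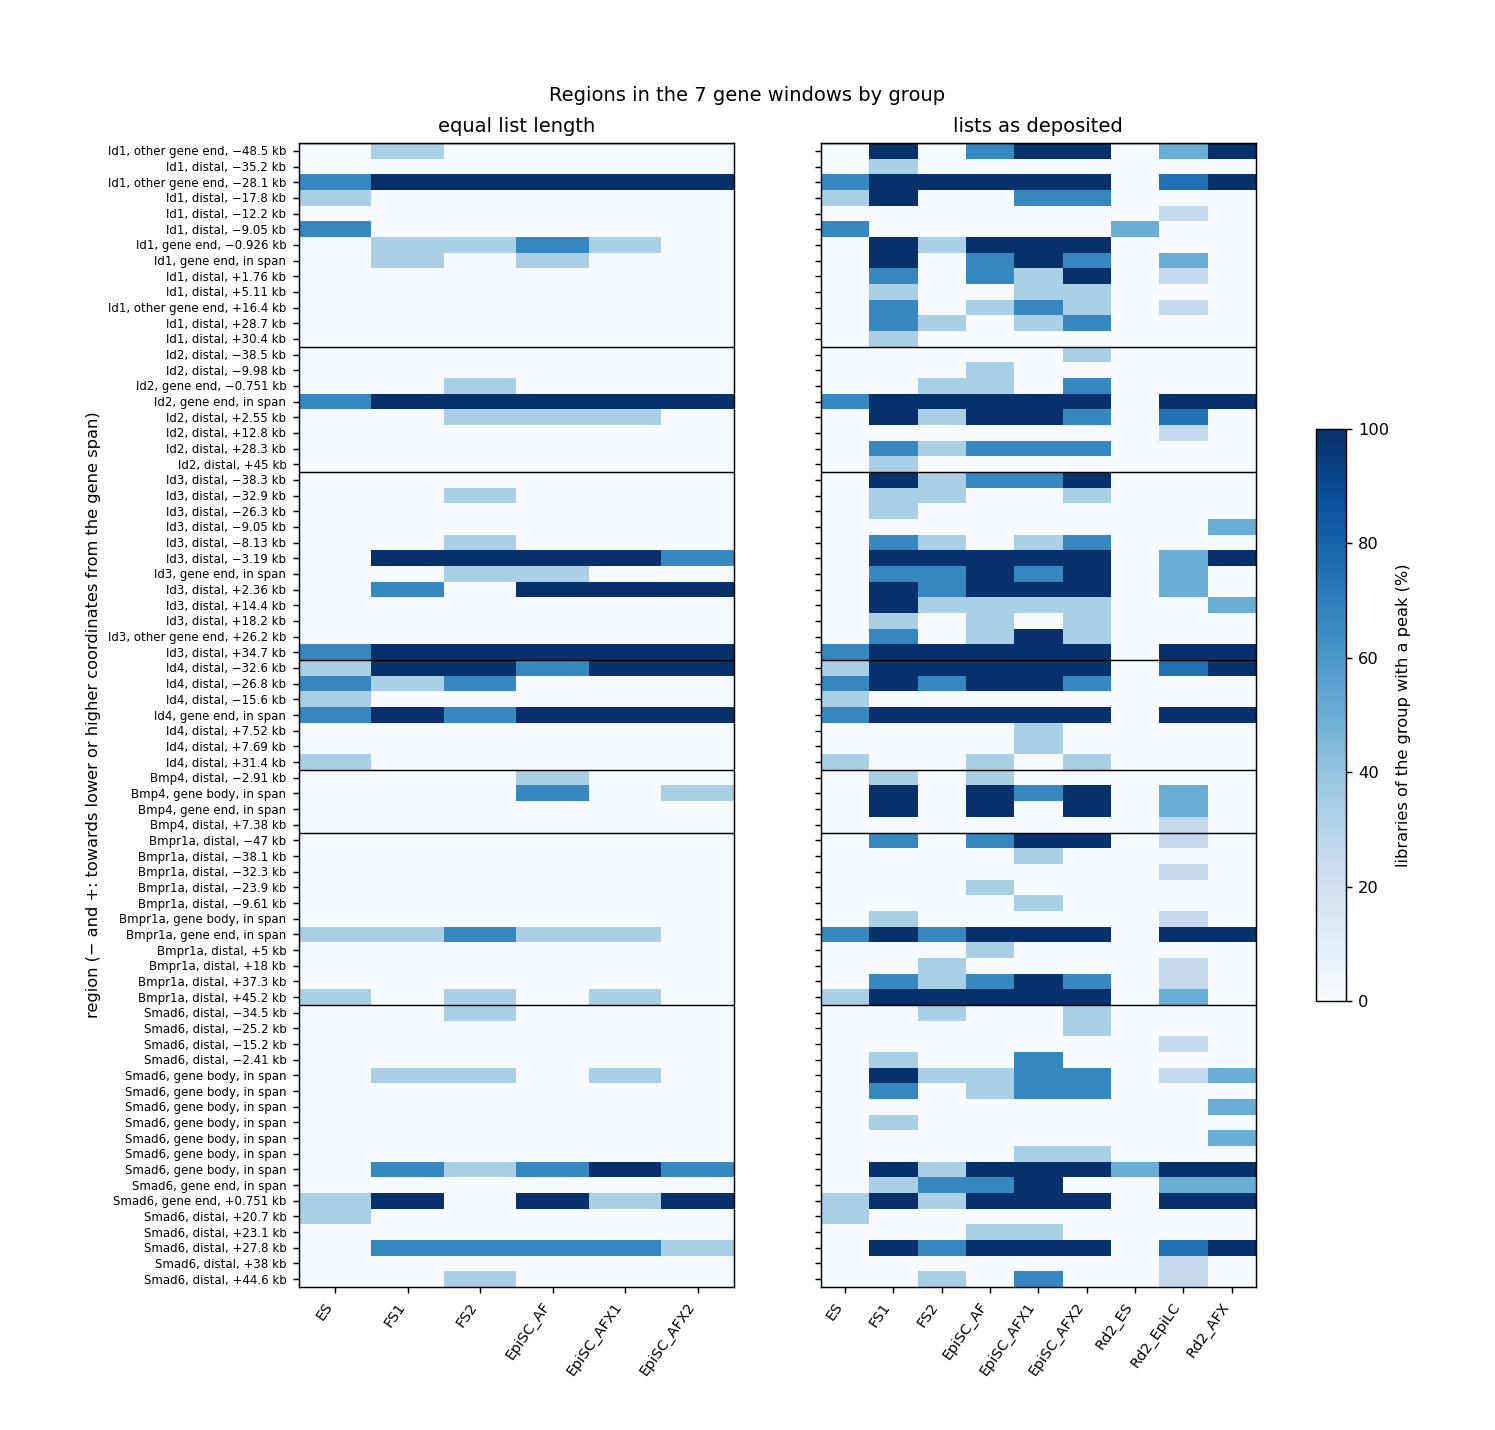
Share of libraries of each group with a peak (colour, %) in each of the 73 regions of the 7 windows (rows, with class and distance from the gene span), at equal list length (left) and as deposited (right). The Id2 promoter row is dark in every first-set group, at 2 of 3 libraries in ES, while both Id3 rows at 3.19 kb below and 2.36 kb above the gene span are empty in ES.

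By position, 50 of the 73 regions were distal, 9 in a member's body, 10 at a member's end and 4 at another gene's end. ES libraries held 14 of the 73 at equal length, against 24 in FS and 16 in AFX libraries, which number 6 each. No region was held by all 18 libraries, and 5 were held by at least 15. At the gene ends, 0 of 7 members had a peak in every ES library at equal length, 3 in FS1, 1 in FS2, 3 in EpiSC_AF, 2 in EpiSC_AFX1 and 3 in EpiSC_AFX2. The share of all protein-coding genes with such a peak in every library was 11.8%, 18.7%, 12.7%, 19.1%, 18.4% and 19.5% in the same order. Id2 was the only member with one in all 15 libraries outside ES. As deposited, 7 of 7 members had a gene-end peak in every EpiSC_AFX2 library (46.6% of all genes), 6 in FS1 (46.1%) and 2 in FS2 (22.8%).

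Summed over the 7 windows at equal length, ES libraries held 9, 2 and 9 peaks, FS1 10, 11 and 12, FS2 10, 13 and 11, EpiSC_AF 14, 11 and 11, EpiSC_AFX1 10, 12 and 10, and EpiSC_AFX2 10, 9 and 8. ES minus FS was −4.5 peaks (6.67 ± 4.04 SD, n = 3, against 11.2 ± 1.17, n = 6), and −2.17 without ES replicate 2. ES minus AFX was −3.17 peaks (9.83 ± 1.33 in AFX), and −0.833 without that library. FS minus AFX was 1.33 peaks. No test was made of these sums. The median difference over the members tested was −0.333, −0.167 and 0.167 peaks in the 3 comparisons, beside −0.167, −0.167 and 0.0 over all genes tested, with 6, 7 and 7 members tested.

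List length moved with most of the deposited counts. As deposited, the sums were 10, 2 and 9 peaks in ES, 30, 31 and 41 in FS1, 17, 16 and 16 in FS2, 21, 28 and 34 in EpiSC_AF, 24, 33 and 38 in EpiSC_AFX1 and 26, 35 and 32 in EpiSC_AFX2. The 3 members Bmpr1a, Id3 and Smad6 lay wholly below in ES against FS, as did 17.9% of all genes, and none passed the adjusted threshold, as for 0.0% of all genes. The 4 members Id1, Id3, Bmpr1a and Smad6 lay wholly below in ES against AFX, as did 42.3% of all genes. Of these, 3 passed the exact permutation test at adjusted p = 0.0324: Id1 with −4.83 peaks, Id3 with −5.83 and Bmpr1a with −3.33 (ES minus AFX). This stands beside 36.7% of all genes. When peaks with −log10 q of at least 5 alone were kept, 4 members (Id2, Id3, Id4 and Smad6) passed and lay wholly below in ES against AFX (adjusted p = 0.0365 each, exact permutation test), beside 32.7% of all genes that passed and 41.3% that lay wholly below. No member passed for FS against AFX, as for 0.0% of all genes. Against FS, 1 member region was held by no ES library and every FS library, the upstream Id3 region (2.89% of all regions). Against AFX there were 7, in the windows of Id1 (2), Id3 (2), Smad6 (2) and Bmpr1a (1), beside 8.18% of all regions. The part of list length in these counts was not tested beyond the counts at equal length.

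**Figure D4:**
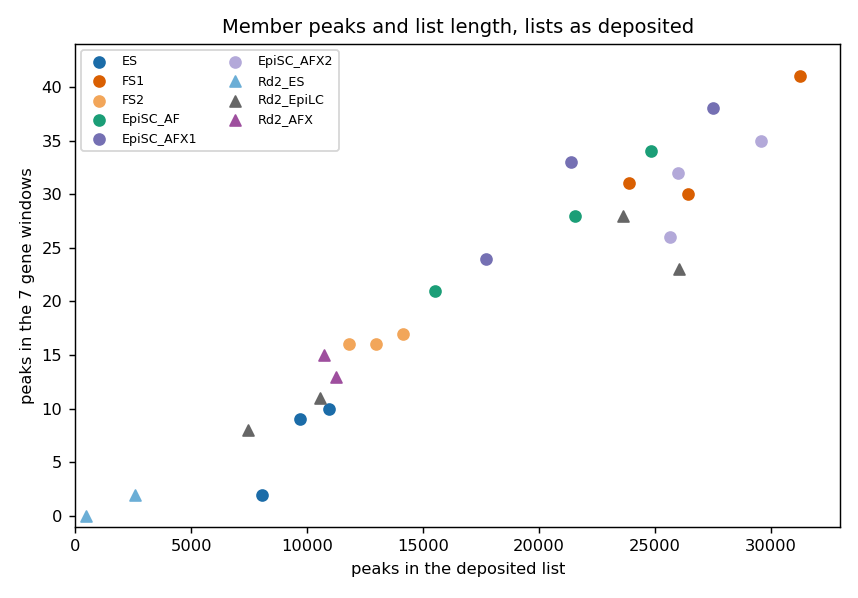
Peaks in the 7 windows (vertical axis) against the number of peaks in the deposited list (horizontal axis) for all 26 libraries, with circles for the first set and triangles for the Rd2 set. Libraries with longer lists had more peaks in the windows, from 0 in the list of 471 peaks to 41 in the list of 31263.

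A wider list of 36 pathway genes was counted by role, leaving out the members: ligands, receptors, signalling SMADs, inhibitors, and targets with partners. At equal length 0 of 32 tested genes passed the adjusted test for ES against FS, 0 of 33 for ES against AFX and 0 of 33 for FS against AFX, and 3, 3 and 1 had an unadjusted exact permutation p under 0.05. Those are 9.38%, 9.09% and 3.03% of the pathway genes tested, beside the 11.7%, 14.5% and 2.78% of all genes. The median difference of the pathway genes was 0.0 peaks in each. The mean was lower in ES than in FS for 15 pathway genes, higher for 11 and equal for 6, and against AFX it was lower for 15, higher for 14 and equal for 4. In the 3 comparisons at equal length, Bmp6, a ligand of the same family, was the only pathway gene whose groups did not overlap. It lay wholly below in ES against AFX, as did 7.06% of all genes. It held 0 peaks in each ES library, 0 to 1 in FS and 1 to 2 in AFX libraries, with ES minus AFX at −1.17 peaks (0.0 ± 0.0 SD, n = 3, against 1.17 ± 0.408, n = 6; exact permutation p = 0.0119, adjusted p = 0.138). As deposited, 12 of 36 passed for ES against AFX, all lower in ES, of which 4 were ligands (Bmp6, Bmp7, Bmp8b and Gdf6), 3 inhibitors (Chrd, Fst and Smad7), 1 a signalling SMAD and 4 targets or partners; 36.7% of all genes passed there.

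In the Rd2 set the lists were compared as deposited and without a test, since 2 libraries against 4 cannot give a p below 0.0667. Rd2_ES held 0 and 2 peaks in the 7 windows, Rd2_EpiLC 11, 28, 8 and 23 (replicates 1.1, 1.2, 2.1 and 2.2) and Rd2_AFX 13 and 15. The Rd2_ES lists held 471 and 2576 peaks, and all 28 marker genes were at 0 in them. Among the deposited Rd2_EpiLC lists, the fibroblast marker Col1a2 had a gene-end peak in 3 of 4. Thy1, Col1a1 and Twist1 had such a peak in 2 of 4 each. Of the trophoblast and primitive endoderm markers, Cdx2 had one in 2 of 4, and Elf5 and Sox7 in 1 of 4 each. Cut to 7469 peaks, only Col1a2 kept any, in 2 of 4. Deposited first-set lists held such peaks too, though not in ES. In AFX, Col1a2 and Thy1 had them in 6 of 6 libraries and Col1a1 and Twist1 in 4 of 6. The part of such peaks in the member counts was not tested. EpiLC replicates 1.2 and 2.2 had lists of 23608 and 26045 peaks and replicates 1.1 and 2.1 of 10563 and 7469. The member counts were higher in replicates 1.2 and 2.2, and the part of list length in that was not tested. Id3 held 0 and 0 peaks in Rd2_ES, 1, 4, 1 and 4 in Rd2_EpiLC and 2 and 4 in Rd2_AFX. The upstream Id3 region was in 2 of 4 EpiLC and 2 of 2 Rd2_AFX lists, and the downstream one in 2 of 4 and 0 of 2. Smad6 held 0 and 1 peaks in Rd2_ES, 3, 7, 3 and 4 in Rd2_EpiLC and 5 in each Rd2_AFX library. Its region 3.48 kb inside the gene was in 1 of 2 Rd2_ES, 4 of 4 EpiLC and 2 of 2 Rd2_AFX lists, the only one of the first-set Smad6 regions seen in Rd2_ES. Promoter peaks at Id2 and Id4 were in 4 of 4 EpiLC and 2 of 2 Rd2_AFX lists and in neither Rd2_ES list. The merged region across the Bmpr1a start was held as often, but the 300-base Bmpr1a promoter itself was covered in 2 of 4 EpiLC and 1 of 2 Rd2_AFX lists. Cut to 7469 peaks each, EpiLC lists held 4, 8, 8 and 6 member peaks and Rd2_AFX lists 10 and 11.

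Across the 18 first-set libraries at equal length, the genes more than 1 Mb from a member whose window counts were most like those of Id3 were Gm14428 (Pearson r = 0.879), Tnfrsf14 (r = 0.868) and Mov10l1 (r = 0.863). For Smad6 they were Msi1, Extl3 (r = 0.825) and Map4k4 (r = 0.791). For Id2 the closest was Septin4 (r = 0.868), and for Id4 Akr1b3 (r = 0.916). For Id1 the closest were Ppa1, Sar1a and Tysnd1, tied at r = 0.768. The highest values for Bmpr1a were those of Zfp790 and Zfp940 (r = 0.847 each), while 9 genes were tied for Bmp4 (r = 0.848). These are descriptions of small whole numbers over libraries that share groups, picked as the highest of all genes, and carry no p.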

How the data were processed

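ATAC-seq peak lists were deposited for 26 libraries, 1 list each, so peaks were called per library. The submitters' processing notes name Trim Galore, Bowtie, Picard, MACS2 and the build mm10, without versions or roles. The deposited lists give every peak a score, a fold enrichment (a ratio), a −log10 p and a −log10 q from the authors. The score was not used. The lowest deposited −log10 q was 1.0. The shortest peak was 150 bp in the first set and 110 bp in the Rd2 set, and no test was made across the sets; the presence of a peak in a region is listed over both.

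Peaks were counted per gene window (RefSeq GRCm38.p6 gene spans, 50 kb on each side, overlap of 1 bp), at 8044 peaks per first-set list by −log10 p and as deposited. Group means were compared for every protein-coding gene by an exact two-sided permutation test, with Benjamini-Hochberg adjustment over genes with a peak in any compared library and a threshold of 0.05. Regions were merged overlapping peaks, tested by Fisher's exact test with the same adjustment. The permutation test was tested on simulated window counts, and Fisher's exact test was not. Read depth is unknown, so no counting interval is given. At most 0.0746% of peaks had identical coordinates in 2 libraries of 1 group, so no list was a copy of another. That share cannot show whether the libraries came from separate cultures. Each library was counted as a replicate.

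All 7 members are named. Regions are given with coordinates where separated in a comparison, or among up to 3 per member held by most first-set libraries, gene ends first; others named (a region seen in ES lists only, the Bmpr1a, Bmp4, Id1, Id2 and Smad6 regions beyond this) were chosen after their values were seen, as were the promoter strings. The genes, lists and tests were chosen with earlier results of these data known. Alternatives were the deposited lists, ranking by fold, a −log10 q of at least 5, 50% overlap, windows of 20 and 100 kb, a gene end of 2 kb, each library left out, a replicate block and Fisher's test on windows. Python 3.11.15, numpy 2.4.6, pandas 2.3.3, scipy 1.17.1 and matplotlib 3.10.9 were used.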

Additional observations from a re-analysis of the deposited data

Results flagged for a closer look

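In 7 of 40 sets of 4 or 6 libraries, 1 library stood apart from the others in the number of peaks in a window. These are small whole numbers with many ties, and 1 peak more or fewer than otherwise equal libraries is enough. The rate of about 1 in 20 sets that chance gives for continuous values does not apply here. At equal list length, FS2 replicate 2 held 3 peaks in the Id2 window against 1 in the other FS libraries. EpiSC_AFX1 replicate 3 held 2 peaks in the Id1 window and EpiSC_AFX1 replicate 2 held 2 in the Id2 window, against 1 in the other AFX libraries in each case. EpiSC_AFX2 replicate 3 held 2 peaks in the Id3 window against 3 in the others, and 1 in the Bmp4 window against 0. In the deposited lists, FS2 replicate 2 held 2 peaks in the Id4 window against 3 in the other FS libraries, and Rd2_EpiLC replicate 2.2 held 3 there against 2. No explanation was tested.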

How the results depend on the processing

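Of 378 recomputed differences of single members, 261 kept their sign, 22 changed it and 7 became 0. Of these, 7 newly passed the threshold, 3 of them with a changed sign. The remaining 88 belong to 5 differences of 0.0, of which 58 took a value: for ES minus FS from −3.17 to 0.833 (Id1), −1.33 to 1.17 (Id4), −2.17 to 0.333 (Bmpr1a) and −1.17 to 0.0 (Bmp4), and for FS minus AFX from −1.0 to 0.333 (Id3). Of 203 recomputed comparison results, 174 stayed, 26 moved and 3 changed sign. The lists as deposited, and peaks with −log10 q of at least 5, moved the most; both leave list length unequal. ES against FS: the sum became −18.2 and −7.0 under these. Non-overlapping members numbered 3 as deposited, where 17.9% of all genes lay wholly below, and 0 with 100 kb windows. With a library left out they numbered 1 to 2 (2 without FS2 replicate 3). Separated regions were 0 at −log10 q of at least 5, and 1 to 2 with a library left out (2 without ES replicate 2 or 3). ES against AFX: members called became 3 and 4 (beside 36.7% and 32.7% of all genes), the sum −24.3 and −9.67, and non-overlapping members 4 and 4 (beside 42.3% and 41.3% lower in ES), with 2 in 100 kb windows and 1 to 2 with a library left out (2 without ES replicate 2 or EpiSC_AFX2 replicate 3). Separated regions became 7 and 5, 0 when ranked by fold, and 1 to 3 with a library left out (3 without ES replicate 2 or EpiSC_AFX2 replicate 3, 2 without ES replicate 3). FS against AFX: the sum became −6.17 and −2.67, and 0.0 in 20 kb windows. Members with a gene-end peak in every library outside ES became 2 as deposited. No share over all genes was counted for that, for 100 kb windows or with a library left out. For separated regions it was counted only at equal length and as deposited. Leaving a library out makes non-overlap easier for every gene and region. The Rd2_ES minus Rd2_EpiLC sum of −16.5 became 0.75 at 471 peaks per list and −5.5 with EpiLC lists cut to 7469. Sign changes of single members for ES minus AFX were, as deposited and at −log10 q of at least 5, −4.83 and −1.0 (Id1), −1.0 and −2.0 (Id4) and −3.33 and −0.333 (Bmpr1a); Id1 was −0.167 in 100 kb windows. With a library left out, Id1 ran from −0.167 to 1.33 (lowest without ES replicate 1) and Id4 from −0.5 to 1.5 (lowest without ES replicate 3). For FS minus AFX they were, in the same order, −1.67 and −0.167 (Id1), −0.5 and −0.167 (Id2), −0.5 and −0.667 (Id4), −2.0 and −0.333 (Smad6) and, as deposited only, −1.17 (Bmpr1a). In 20 kb windows Id4 was −0.167 and Smad6 −0.333. With a library left out, Id2 ran from −0.167 to 0.333 (lowest without FS2 replicate 2) and Smad6 from −0.0667 to 0.433 (lowest without EpiSC_AFX2 replicate 3). The causes were not tested. Over all alternatives, Id3 stayed between −5.67 and −1.67 for ES minus FS and between −5.83 and −1.83 for ES minus AFX. With the replicate block, 0 members were called in each comparison. The numbers did not pair the libraries: deviations of same-numbered libraries correlated between −0.0431 and 0.0396, and 0 of 3, 1 of 3 and 2 of 6 libraries correlated best with their own number. Fisher's test on windows also called 0.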
